A study of Mus musculus with 2 samples.

Results

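The expression of 10 genes of the Hippo pathway was followed between differentiating control ESCs (Diff–CONT) and differentiating inducible Ino80 knockout ESCs (Diff–iKO), with 1 library per condition. They are the angiomotin genes Amot, Amotl1 and Amotl2, the coactivator genes Yap1 and Wwtr1, the kinase genes Lats1 and Lats2, and the target genes Ctgf, Cyr61 and Ankrd1. They were taken by symbol, and all 10 of them have a row among the 24354 genes with an FPKM value (sequenced fragments per kilobase of transcript, relative to the size of the library). Of the 10, Amot and Ctgf differed by at least 2-fold, as did 15.1% of all genes with an FPKM of at least 2 in at least 1 library. In the library labelled Diff–iKO, Amot was 2.73-fold lower and Ctgf 2.78-fold higher, while Yap1, Wwtr1 and the Lats genes differed by at most 1.33-fold.

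The control cells carried the floxed Ino80 alleles (Ino80 2f/2f), and the knockout cells carried the same alleles with CreER at ROSA26 (Ino80 2f/2f;ROSA26-CreER). The sample labels give the control genotype as WT. Both lines were derived from blastocysts, and how many lines stand behind each library is not given in the sources used here. Both were grown as EBs from 500000 cells, attached on day 4, and kept from day 5 in differentiation medium with BMP4 and 0.5 µM 4-OHTM, the drug that activates CreER, for 7 days. Control cells therefore received the drug too, and no library of cells without it was analysed here.

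The Hippo pathway is a kinase cascade that limits tissue growth. Mst kinases activate the Lats kinases, and these phosphorylate Yap and Taz (encoded by Yap1 and Wwtr1) and keep them out of the nucleus. Without that mark Yap and Taz enter the nucleus, bind Tead transcription factors and switch on genes such as Ctgf and Cyr61. Angiomotins bind Yap and actin filaments at cell junctions and hold Yap in the cytoplasm. In the mouse blastocyst the pathway separates the trophectoderm from the inner cell mass. Much of its control acts on protein phosphorylation and location, which RNA levels do not record.

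The steps in the FPKM values gave library sizes of about 30184991 fragments for Diff–CONT and 22537811 for Diff–iKO, 1.34 times as many in the former. Ino80 itself had a higher FPKM in the library labelled Diff–iKO (10.3) than in Diff–CONT (8.90), with a log2 ratio of 0.21 and a counting interval from 0.11 to 0.31. The whole-gene value thus did not go down with the label, and FPKM per gene does not resolve the deleted part. All directions are therefore those of the library labelled Diff–iKO against the Diff–CONT library, and where a pair of FPKM values is given, Diff–CONT comes first. The libraries also differed in cell type markers. Of the markers with an FPKM of at least 2 in 1 library, 7 of 8 pluripotency genes were at least 2-fold higher, 10 of 10 visceral endoderm genes, 7 of 9 endothelial genes, 5 of 10 mesenchyme genes and 4 of 5 cardiomyocyte genes were at least 2-fold lower, and of 11 trophoblast genes 5 were higher and 3 lower. The summed FPKM was 446 and 2849 for the pluripotency list, 329 and 10.6 for visceral endoderm, 1985 and 1726 for mesenchyme, and 1040 and 1400 for trophoblast. For the endothelial list it was 66.1 and 72.2. The most abundant gene weighs on some of these sums: without Dppa5a the pluripotency sum was 188 and 734, without Col1a1 the mesenchyme sum was 1106 and 527, and without Pecam1 the endothelial sum was 49.9 and 18.3. Without the keratin genes Krt8 and Krt18 the other 10 trophoblast genes summed to 110.4 and 104.4. No gene of these lists was at 0 in either library. In both directions, some of the genes past 2-fold reached the FPKM minimum only in the library where they were higher. In bulk RNA, fewer cells of a type and less RNA per cell cannot be told apart. Whether these shifts have a part in the differences given here was not tested.

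Across the 12376 genes with an FPKM of at least 2 in at least 1 library, 6.73% were at least 2-fold higher and 8.39% at least 2-fold lower in the library labelled Diff–iKO, 15.1% in either direction. All 10 members reached that FPKM minimum. One of them, Ctgf, passed the 2-fold cut-off upward, and 1, Amot, passed it downward. These counts are near the shares over all genes. Of the members, 2 were above and 8 below their Diff–CONT value, and their median log2 ratio was -0.16 (FPKM + 0.1), against -0.01 over the 13145 genes whose mean FPKM reached 1. With 1 library per condition these are descriptions without a test, and the 95% intervals below cover the counting error of the fragments and not the spread between cultures. Those intervals excluded 0 for 8 of the 10 members, all but Wwtr1 and Lats2. They also excluded 0 for 78% of 12244 genes at the FPKM minimum with a known transcript length, so the count says little about the members. Scaled to the same FPKM sum, 9 of the 10 excluded 0.

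**Figure D1:**
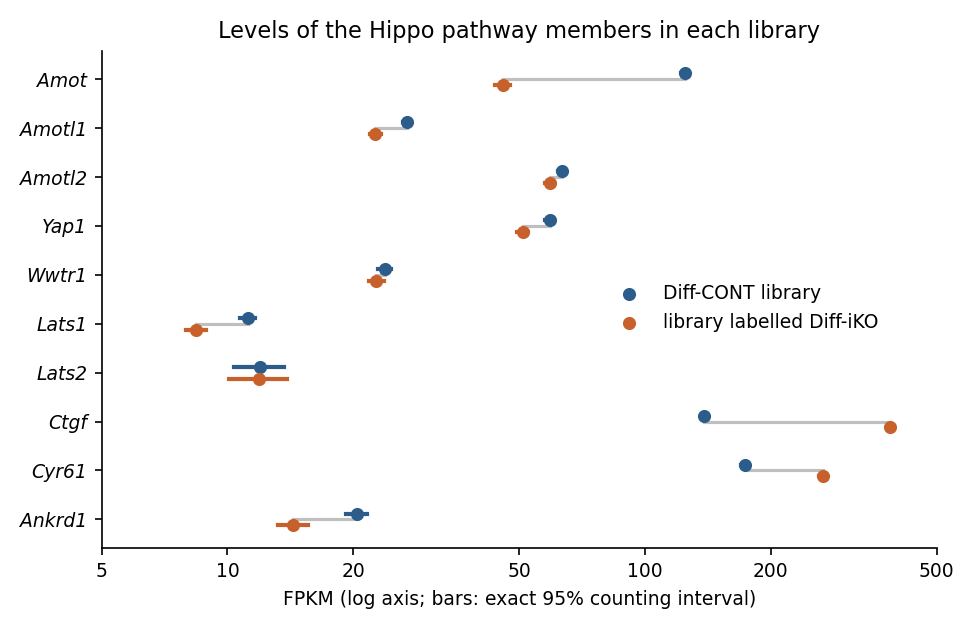
FPKM of each member (log axis) in the Diff–CONT library (blue) and the library labelled Diff–iKO (orange), with bars for the exact 95% counting interval and a grey line joining the libraries. Amot lies at 124.6 and 45.7 and Ctgf at 139 and 385, while Wwtr1 and Lats2 have overlapping bars.

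In Diff–CONT the members ranked from Cyr61, Ctgf and Amot at the top to Ankrd1, Lats2 and Lats1 at the bottom on the FPKM scale. Only the neighbours Lats2 and Lats1 overlapped in their counting intervals there. In the library labelled Diff–iKO, Ctgf stood first and Cyr61 second, and Amot went from the third place to the fifth. The overlapping neighbours were then Wwtr1 with Amotl1, and Ankrd1 with Lats2. With the longer transcript of Lats2 its interval in that library was 11.3 to 12.5, clear of Ankrd1 (13.2 to 15.6).

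Yap1 and Wwtr1, the coactivators at the end of the cascade, were close to level between the libraries. Yap1 (chromosome 9 of GRCm38, 7931999 to 8004596) had an FPKM of 59.1 and 50.9. That is 1.16-fold lower (log2 ratio -0.22, interval -0.27 to -0.16), and 34.7% of the 12376 genes lay at least as low. Wwtr1 (chromosome 3, 57455649 to 57575910) had an FPKM of 23.8 and 22.7. The log2 ratio was -0.07, and its interval from -0.15 to 0.01 takes in 0 on the deposited scale. Scaled to the same FPKM sum, the log2 ratio was -0.16 and the interval from -0.24 to -0.08 did not. Yap1 was the larger part of the pair in both libraries, with 71.3% and 69.1% of their summed FPKM.

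The Lats kinases, which phosphorylate Yap and Taz, were the lowest of the members. Lats1 (chromosome 10, 7681214 to 7716460) had an FPKM of 11.2 and 8.42 (log2 ratio -0.41, interval -0.51 to -0.31). It was lower beyond counting error and short of the cut-off. Lats2 (chromosome 14, 57689662 to 57758388) stood at an FPKM of 11.9 in both libraries, with a log2 ratio of -0.01. Its interval of -0.31 to 0.30 rests on the shorter of 2 RefSeq transcripts (786 nucleotides), and with the longer one (5191 nucleotides) it was -0.11 to 0.10. The log2 ratio of Lats2 is the only one of the 10 that took the other sign under another scaling, 0.01 with equal upper quartiles. Lats2 made up 51.6% and then 58.5% of the summed Lats FPKM.

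The angiomotin genes were all lower, by unequal amounts. Amot, on chromosome X from 145446425 to 145505181, had an FPKM of 124.6 (counting interval 122 to 127.4) and of 45.7 (43.8 to 47.6). The log2 ratio was -1.45 (interval -1.52 to -1.38), and 4.10% of the 12376 genes were at least as low. It kept its side of the cut-off with pseudocounts of 0.1 and 1 and under each of 3 other scalings, with log2 ratios from -1.54 to -1.43. X-linked genes went the other way as a group, with a median log2 ratio of 0.16 over 475 genes against autosome medians between -0.08 and 0.06.

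Amotl1 (chromosome 9, 14541966 to 14645056) had an FPKM of 27.0 and 22.6 (log2 ratio -0.25, interval -0.31 to -0.20). Amotl2 (chromosome 9, 102716672 to 102733418) had an FPKM of 63.5 and 59.1 (log2 ratio -0.10, interval -0.15 to -0.05). The intervals of all 3 angiomotins lie apart from each other, so Amot differed between the libraries by more than its paralogs, beyond counting error. The FPKM of the family summed to 215 and 127. Amot held 58.0% of that sum in Diff–CONT and 35.9% in the other library, where Amotl2 was the most abundant angiomotin with 46.4%. Amot has 2 RefSeq transcripts matched in the annotation, of 2392 and 6957 nucleotides, which an FPKM per gene does not separate.

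**Figure D2:**
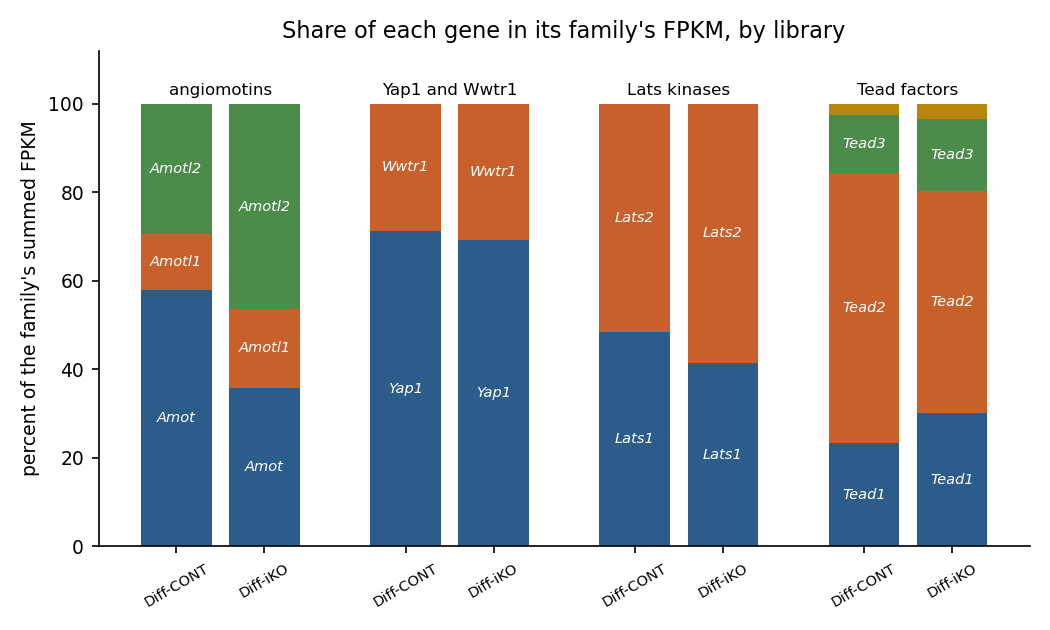
Percent of the summed FPKM of each family held by each gene, in Diff–CONT (left bar of a pair) and the library labelled Diff–iKO (right bar), where the unlabelled top segment of the Tead bars is Tead4. The Amot segment goes from 58.0% to 35.9% and the Tead2 segment from 60.9% to 50.1%, while the Yap1 share is 71.3% and 69.1%.

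Angiomotin proteins are removed through ubiquitin ligases of the Nedd4 family and through tankyrases with Rnf146, and Usp9x takes ubiquitin off them. Of 7 such genes, 0 passed the cut-off, which 15.1% of all genes passed in either direction, and 6 of the 7 were below their Diff–CONT value, as were 50.3% of all genes. The exception, the deubiquitinase gene Usp9x, had an FPKM of 32.3 and 53.2 (log2 ratio 0.72, interval 0.68 to 0.76). Usp9x lies on chromosome X, whose genes had a median log2 ratio of 0.16. Nedd4, the most abundant, had an FPKM of 473 and 342 (log2 ratio -0.47). The tankyrase genes Tnks2 and Tnks had log2 ratios of -0.25 and -0.63, the first at 85.3 and 71.8 and the other at 33.7 and 21.7.

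The target genes Ctgf, Cyr61 and Ankrd1 differed in direction. Ctgf encodes a secreted CCN matricellular protein, is now called Ccn2, and lies on chromosome 10 from 24595442 to 24598683. Its FPKM was 139 (counting interval 136 to 142) and 385 (380 to 391). The log2 ratio was 1.47 (interval 1.44 to 1.51), and 3.62% of the 12376 genes were at least as high. Under the alternatives it ranged from 1.38 to 1.49. Cyr61 encodes another CCN protein, is now called Ccn1, and lies on chromosome 3 from 145646976 to 145649981. Its FPKM was 173 and 267 (log2 ratio 0.62, interval 0.58 to 0.66), which is higher beyond counting error and under the cut-off. By FPKM, Cyr61 was 1.25 times Ctgf in Diff–CONT, and in the other library Ctgf was 1.45 times Cyr61.

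Ankrd1, on chromosome 19 from 36111961 to 36120099, encodes a nuclear ankyrin repeat protein that is abundant in heart muscle as well as being a Yap target. Its FPKM was 20.4 (19.2 to 21.6) and 14.4 (13.2 to 15.6). The log2 ratio was -0.50 (interval -0.65 to -0.36), opposite in sign to Ctgf and Cyr61. Of the 12 cardiomyocyte markers, 5 reached the FPKM minimum, and those 5 were below their Diff–CONT value. Of the 7 under the minimum, 4 were below and 3 above it, among them Ttn, the titin gene, with 0.132 and 0.271 (log2 ratio 1.04, interval 0.84 to 1.25), and Nppa, a natriuretic peptide gene, with 5 and 13 fragments. The FPKM of the 12 summed to 56.0 and 15.1, and 0 of them were at 0 in either library. The part of those cells in the lower Ankrd1 was not tested.

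**Figure D3:**
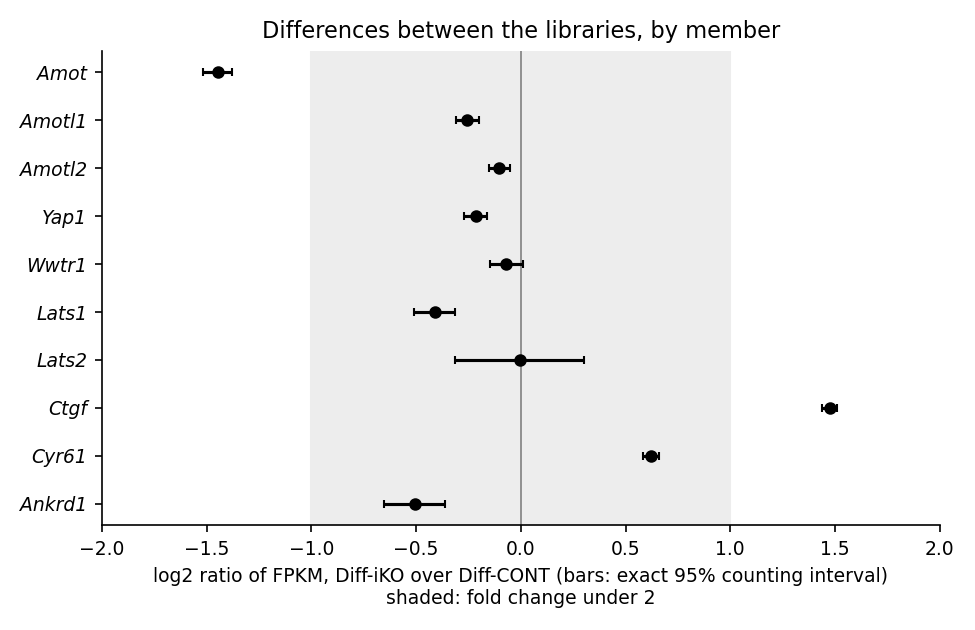
Log2 ratio of FPKM of each member, the library labelled Diff–iKO over Diff–CONT, with the exact 95% counting interval as bars and fold changes under 2 shaded. Amot at -1.45 and Ctgf at 1.47 lie outside the shaded range, and the bars of Wwtr1 and Lats2 include 0.

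Among the 6 CCN genes, 4 reached an FPKM of 2 in 1 library. All 4 were above their Diff–CONT value, as were 49.7% of all genes at that minimum. Of the 4, Ctgf and Cyr61 are members already described, and Nov reached the minimum only in the library labelled Diff–iKO. Nov (Ccn3) passed the cut-off at a low level, with an FPKM of 0.673 and 2.19, a log2 ratio of 1.70 on 54 and 132 fragments. With a pseudocount of 1 it was 1.91-fold higher and no longer passed. Wisp1 (Ccn4) had an FPKM of 19.7 and 25.6, a log2 ratio of 0.38. Under the minimum, Wisp2 (Ccn5) was lower, with 0.671 and 0.224 on 31 and 8 fragments (log2 ratio -1.58, interval -2.86 to -0.38), and Wisp3 was listed at 0 in both.

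Promoter sequences show how the members differ in the core site read by Tead factors, GGAATG or its reverse complement CATTCC. Windows from 250 bases before to 50 after each annotated start (RefSeq, GRCm38.p6) were searched on both strands. Of the members, 9 have a window, and 6 of the 9 hold a match, against 16.6% of 27025 genes with such windows. The 6 are Amotl2, Yap1, Wwtr1, Lats2, Cyr61 and Ankrd1. Of these, Amotl2, Lats2, Cyr61 and Ankrd1 are among the Yap targets listed below, so the share is not independent of how the members were chosen. Amot, Amotl1 and Lats1 have no match in these windows. The starts used for Amot and Amotl1 (145487639 and 14615000) lie inside these minus-strand genes, which extend up to 145505181 and 14645056. Sequence before those gene ends was not searched. For Ctgf no window was used here. A match of these letters is a description and not a bound site, and no binding data were analysed here. Among 11 other listed Yap targets with a window, 3 hold a match. No member window holds an AP-1 site or an SRF CArG box, which 5.95% and 1.81% of genes hold.

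The 250 bases before the start are shown for the target genes Cyr61, Ankrd1 and Amotl2 and, for contrast, for Amot, the member that was past the cut-off downward. They run 5′ to 3′ on the gene's strand, with the Tead core in capitals. Starts are those of the RefSeq table. The starts of Amot, Amotl2 and Ankrd1 lie inside the extents given here for these genes. That of Amot is also a GENCODE transcript start, while those of Amotl2, Ankrd1 and Cyr61 lie 136, 66 and 4 bases from the nearest one. The positions are chr3:145649986-145650235 (minus strand), chr19:36119845-36120094 (minus strand), chr9:102717554-102717803 (plus strand) and chrX:145487640-145487889 (minus strand).
Cyr61: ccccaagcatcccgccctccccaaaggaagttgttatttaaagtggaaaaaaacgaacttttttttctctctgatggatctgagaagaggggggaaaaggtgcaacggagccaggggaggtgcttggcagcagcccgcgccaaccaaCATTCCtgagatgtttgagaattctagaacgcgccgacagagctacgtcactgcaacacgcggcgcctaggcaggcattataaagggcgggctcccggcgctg
Ankrd1: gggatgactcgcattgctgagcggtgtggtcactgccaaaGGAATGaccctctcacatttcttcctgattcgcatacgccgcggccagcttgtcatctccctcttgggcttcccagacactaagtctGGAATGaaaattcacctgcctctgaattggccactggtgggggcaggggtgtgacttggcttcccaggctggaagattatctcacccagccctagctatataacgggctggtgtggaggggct
Amotl2: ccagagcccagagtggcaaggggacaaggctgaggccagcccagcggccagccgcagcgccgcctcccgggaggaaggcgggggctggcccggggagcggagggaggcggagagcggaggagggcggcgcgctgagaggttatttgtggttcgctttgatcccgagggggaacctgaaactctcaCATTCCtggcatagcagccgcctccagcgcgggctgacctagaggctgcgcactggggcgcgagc
Amot: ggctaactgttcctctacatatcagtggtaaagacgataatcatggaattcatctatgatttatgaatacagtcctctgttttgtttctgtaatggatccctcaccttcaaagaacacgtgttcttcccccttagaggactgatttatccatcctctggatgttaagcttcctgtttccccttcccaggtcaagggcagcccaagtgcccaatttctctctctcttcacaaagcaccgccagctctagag

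The core begins 103 bases before the start in Cyr61, 210 and 123 bases before it in Ankrd1, and 65 bases before it in Amotl2. The same letters thus stood before a gene that was higher (Cyr61, log2 ratio 0.62), one that was lower (Ankrd1, -0.50) and one close to level (Amotl2, -0.10). In Lats2 the core begins 4 bases after the first transcribed base, shown here with its flanks (chr14:57746102-57746131, minus strand).
Lats2: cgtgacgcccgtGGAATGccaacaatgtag

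The wider group of Yap targets also went both ways. The list holds 22 genes that are commonly used as a Yap and Taz signature, 5 of them members (Ctgf, Cyr61, Ankrd1, Amotl2 and Lats2). All 17 of the others reached the FPKM minimum, with 8 above and 9 below their Diff–CONT value and a median log2 ratio of -0.02. One passed the cut-off upward, F3, which encodes tissue factor, the starter of blood clotting. It had an FPKM of 32.4 and 119 (log2 ratio 1.87, interval 1.79 to 1.96). One passed it downward, Rbms3, an RNA-binding protein gene, with an FPKM of 9.82 and 4.67. The log2 ratio was -1.07, and the interval from -1.32 to -0.83 spans the cut-off, which Rbms3 no longer passed with a pseudocount of 1 (1.91-fold). A share of 1 in 17 in either direction lies near the 6.73% and 8.39% of all genes.

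At a lower minimum of 1.5-fold, which 14.9% of all genes passed upward and 17.6% downward, 6 of the 17 were higher and 4 were lower. The other 5 higher genes had log2 ratios between 0.88 and 0.96, short of the cut-off. Myof, a ferlin gene of membrane repair, had an FPKM of 23.3 and 45.2 (log2 ratio 0.96, interval 0.90 to 1.01). Gadd45a, which is also induced by p53 in the response to DNA damage, had 17.3 and 33.7 (0.96, interval 0.80 to 1.12). Crim1 and Dock5 had log2 ratios of 0.94, and Nt5e one of 0.88. The other 3 lower genes were Igfbp3, which encodes an IGF binding protein and had an FPKM of 82.9 and 54.3 (log2 ratio -0.61), Fjx1 (-0.63) and Foxf2 (-0.65). Axl, a receptor tyrosine kinase gene and one of the most abundant targets, was near level with a log2 ratio of 0.07, as was Ptpn14 with one of 0.01.

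**Figure D4:**
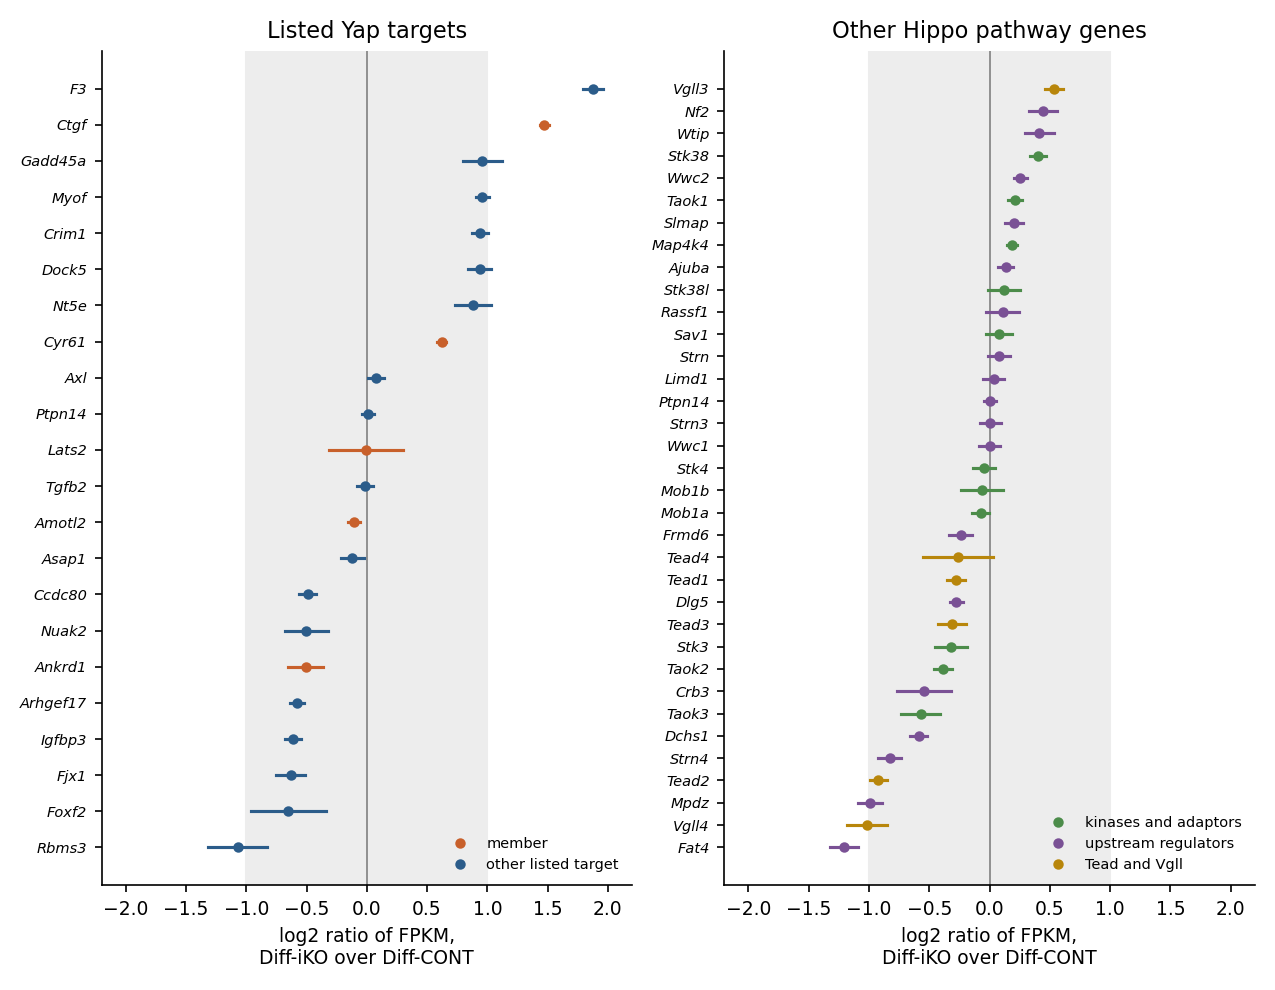
Log2 ratio of FPKM, the library labelled Diff–iKO over Diff–CONT, with exact 95% counting intervals as bars and fold changes under 2 shaded, for 22 listed Yap targets (left) and the 35 other pathway genes with an FPKM of at least 2 in 1 library (right). The targets run from 1.87 for F3 to -1.07 for Rbms3 with both signs, and in the right panel Fat4 and Vgll4 lie past the lower edge of the shaded range.

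The rest of the pathway went both ways around a median close to 0. Of 37 other pathway genes, 35 reached the FPKM minimum, with 17 above and 18 below their Diff–CONT value and a median log2 ratio of -0.04. For the cut-off, which 6.73% of all genes passed upward and 8.39% downward, the counts were 0 and 2. At 1.5-fold, which 14.9% and 17.6% of all genes passed, 0 were higher and 6 lower (Fat4, Vgll4, Mpdz, Tead2, Strn4 and Dchs1). The downward counts are near the shares over all genes. Neither of the 2 past the cut-off was among the 11 kinase and adaptor genes, whose log2 ratios lay between -0.57 (Taok3) and 0.40 (Stk38). Stk3 and Stk4, which encode the Mst kinases, had FPKM of 14.5 and 11.6 and of 15.9 and 15.5. Their scaffold Sav1 had 22.1 and 23.4. Map4k4, a kinase that also acts on Lats and the most abundant of these genes, had 80.8 and 91.9, and Mob1a, an adaptor of Lats, had 31.7 and 30.1.

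Among 18 upstream regulators, 11 were above and 7 below Diff–CONT, and 1 passed the cut-off. That gene was Fat4, a giant cadherin, with an FPKM of 5.05 and 2.19 (log2 ratio -1.20, interval -1.32 to -1.09), while Dchs1, which encodes its binding partner, had 16.8 and 11.2 (-0.59). With a pseudocount of 1 Fat4 was 1.90-fold lower and no longer passed. Mpdz, a junction scaffold gene, lay at the cut-off with 17.0 and 8.56 (-0.99, interval -1.09 to -0.89), and passed it when scaled to the same FPKM sum (-1.08). Nf2, which encodes Merlin, an activator of Lats at the membrane, had 26.0 and 35.3 (0.44, interval 0.33 to 0.56). Ajuba, an inhibitor of Lats and the most abundant of the regulators, had 44.0 and 48.3. The striatins are subunits of a phosphatase complex that acts on Mst kinases. Strn3 had 32.4 and 32.6 and Strn 9.44 and 9.98, while Strn4 was lower, with 34.3 and 19.3 (-0.83, interval -0.92 to -0.73).

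The Tead factors, which carry Yap and Taz to DNA, were all below their Diff–CONT value. Tead2, the most abundant, had an FPKM of 118 and 62.4 (log2 ratio -0.92, interval -0.99 to -0.85), short of the cut-off, which it passed when scaled to the same FPKM sum (-1.02). Tead1 had 45.5 and 37.6, Tead3 25.2 and 20.3, and Tead4, the factor of the trophectoderm, 5.06 and 4.22. The interval of Tead4 included 0 (-0.55 to 0.03). The summed FPKM of the Tead genes was 194 and 124.5, and Tead2 held 60.9% and 50.1% of it. Among the Vgll cofactors, Vgll4, which competes with Yap for Tead, had 20.6 and 10.2. Its log2 ratio was -1.02, past the cut-off, and the interval from -1.18 to -0.85 reaches back over it. It no longer passed with a pseudocount of 1 (1.93-fold) or with equal upper quartiles. Vgll3 was higher, with 13.3 and 19.3 (0.53), and Vgll1 stayed under an FPKM of 1 in both libraries. Vgll2 had an FPKM of 0.957 (22 fragments) in Diff–CONT and was listed at 0 in the other library.

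**Figure D5:**
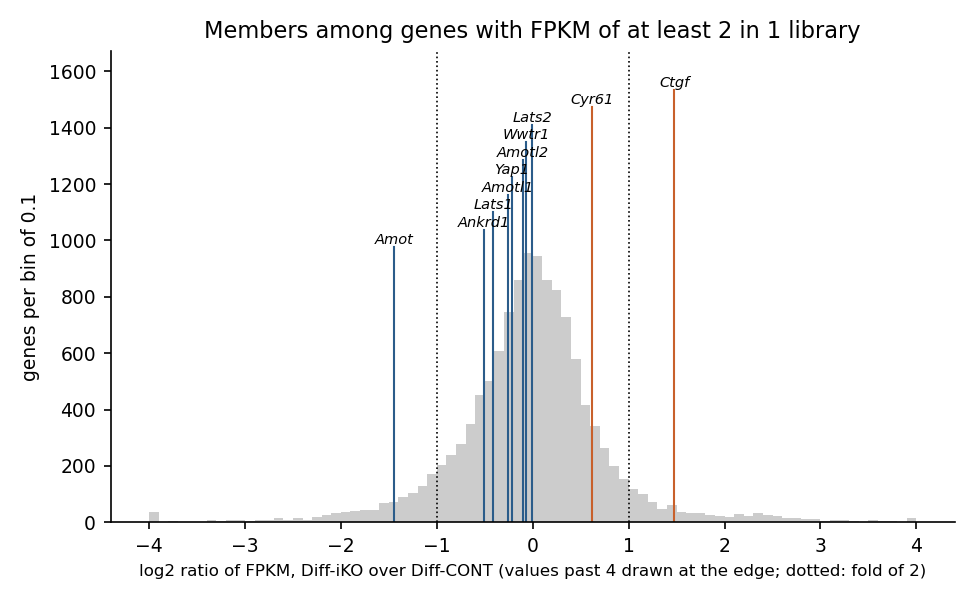
Number of genes per bin of 0.1 in log2 ratio of FPKM, the library labelled Diff–iKO over Diff–CONT, among genes with an FPKM of at least 2 in 1 library and above 0 in both, with the members as vertical lines (orange above 0, blue below). Of the members, 7 lie between -0.50 and -0.01 near the middle of the distribution, and Amot and Ctgf lie past the dotted lines of a 2-fold change.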

How the data were processed

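A stranded mRNA kit was used on 1 µg of RNA per library, with paired-end sequencing. FPKM is the unit the authors deposited, and the submitters' processing notes name STAR 2.7.9a, mm10, Cuffnorm and Cufflinks 2.2.1. The annotation, strand setting and scaling option of Cuffnorm are not given in the sources used here. Both columns of values were mapped to the samples by name, and 0 other columns were present.

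From these values the log2 ratio (Diff–iKO over Diff–CONT) was computed per gene without a pseudocount. The cut-off took its thresholds from the study (fold of at least 2, FPKM of at least 2). Whether the study added a pseudocount, and in which library it asked for the FPKM, is not given in the sources used here. Here none was added, and 1 library had to reach the FPKM. Medians used FPKM + 0.1 where the mean FPKM reached 1. With 1 library per condition there is no test.

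Fragments per gene were estimated from the steps in FPKM of 9481 genes with a single RefSeq transcript of at least 1000 nucleotides, less a fitted 200 nucleotides. Of the low values, 84.5% in each library lay within 0.2 of a whole multiple, against 40% for evenly spread values. Counts used the shortest transcript and are approximate. Ratio intervals are exact Clopper-Pearson and level intervals exact Poisson 95% intervals. They cover counting error only. The calculations were tested on simulated data.

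Genes were matched to GENCODE vM21 (GRCm38) by symbol (23315) or RefSeq synonym (667), and 372 were not matched. Patj and Pals1 of the pathway list had no row under those names. Ptpn14 is on both the upstream and the target list, and Sox17 is on both the endothelial and the visceral endoderm marker list. The members and lists were chosen with earlier results of these data known. The naming rule took all members, the CCN, Tead and angiomotin families, and, of each list, the genes past the cut-off and the 3 with the highest mean FPKM. Marker lists are given by counts and sums instead, with Pecam1, Dppa5a, Col1a1, Krt8, Krt18, Ttn and Nppa as exceptions named after their values were seen. So were these genes of the other lists: Stk3, Stk4, Sav1, Taok3, Dchs1, Mpdz, Strn, Strn4, Tnks, Vgll1, Vgll2, Vgll3, Ptpn14, Acta2, Tagln, Srf and the Yap targets past 1.5-fold. Software was matplotlib 3.10.9, scipy 1.17.1, pandas 2.3.3 and numpy 2.4.6 under Python 3.11.15. Alternatives were other fold and FPKM minimums, pseudocounts and scalings. The counting intervals under other scalings were added after seeing the data.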

Additional observations from a re-analysis of the deposited data

How the results depend on the processing

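With a fold minimum of 1.5 the members past it were 2 higher (Cyr61 joined) and 1 lower, and with a minimum of 4 they were 0 and 0. At these minimums the 17 other Yap targets counted 6 and 0 higher and 4 and 0 lower, the other pathway genes 6 and 0 lower, and all genes 1846 and 278 higher and 2177 and 237 lower. With a pseudocount of 1, 0 of the other Yap targets and 0 of the other pathway genes were lower, so that Rbms3, Fat4 and Vgll4 fell short of the cut-off. All genes then counted 646 higher and 712 lower. With a pseudocount of 0.1, 807 genes in all were higher and 1002 lower, against 833 and 1038 without, and the counts of members, other Yap targets and other pathway genes were the same as without. Scaling to the same FPKM sum shifted every log2 ratio by -0.09 and gave 4 lower pathway genes, with 702 higher and 1226 lower genes in all. Under it the median of the other Yap targets was -0.11 and that of the pathway genes -0.14. Scaling to the same upper quartile gave 1 lower pathway gene, with 861 higher and 1002 lower genes in all. Requiring an FPKM of at least 2 in both libraries left 488 higher and 569 lower genes in all, and dropping the filter gave 2794 and 2761, with 3 lower pathway genes as Vgll2 joined.

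Of 50 recomputed log2 ratios of single members, 43 stayed within the counting interval, and the other 7 left it under scaling to the same sum. Neither Amot nor Ctgf changed its side of the 2-fold cut-off under the pseudocounts and scalings. No symbol occurs more than once, so summing rows of a symbol changed nothing. With 1 library per condition there is no replicate to leave out. No paired analysis was possible because each condition has 1 library. Depth limits short or low genes most, such as Nov, Tead4 and Foxf2.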

Other observations

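SRF and its cofactors Mkl1 and Mkl2 (Mrtfa and Mrtfb), which are released from actin monomers, also act on Ctgf and Cyr61, and genes of that program were looked up. Of 12 listed genes, all with an FPKM of at least 2 in 1 library, 8 were above and 4 below their Diff–CONT value, and 1 passed the 2-fold cut-off upward. Of all genes, 49.7% were above their Diff–CONT value and 6.73% passed upward, so 1 of 12 is near that share. That gene was Cnn1, a smooth muscle calponin, with an FPKM of 8.71 and 19.0 (log2 ratio 1.12, counting interval 0.97 to 1.27). Tagln, another smooth muscle gene, had 230 and 445 (0.95, interval 0.92 to 0.99), Flna, a filamin that crosslinks actin, 301 and 537 (0.83), and Acta2, smooth muscle actin, 263 and 337 (0.36). Flna is X-linked, and X-linked genes had a median log2 ratio of 0.16. The cytoplasmic actins Actb and Actg1 had log2 ratios of -0.07 and -0.11, and Srf itself one of -0.28. The median of the list was 0.14, against -0.01 over all genes. With 1 library per condition this is a description without a test.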
